A study of Homo sapiens with 12 samples.

Results

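The genes described here are 38 cytosolic and mitochondrial heat shock chaperones, their co-chaperones and the heat shock factors HSF1 and HSF2. They were taken by gene symbol from the 60675 genes of each count table. They comprised 4 HSP70 genes, 6 HSP110 and HSP70 nucleotide exchange genes, 2 HSP90 genes, 7 HSP90 co-chaperones, 9 cytosolic HSP40 genes, 3 small heat shock protein genes, 5 mitochondrial genes and the 2 regulators. The chaperones of the endoplasmic reticulum were not among them and are given separately.

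RNA was sequenced from 12 libraries in 6 groups of 2. The C4-2 line (LNCaP:C42 in the labels) is a castration-resistant derivative of the human prostate cancer line LNCaP. All groups, controls included, received the synthetic androgen R1881 at 1 nM, and treatment lasted 72 h. The 4 C4-2 groups were R1881 alone, R1881 with namoline at 50 µM, R1881 with TCE-5002, and R1881 with both inhibitors (the combination), and the 2 groups labelled LNCaP were R1881 alone and the combination. Namoline inhibits the histone lysine demethylase KDM1A. TCE-5002 inhibits the demethylase KDM7A and, as the study states, also acts on KDM7B (PHF8) and KDM2A. The series text lists TCE-5002 at 100 µM but the methods of the study state less, which leaves the dose used here uncertain. No library without R1881 was analysed here.

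HSP70 proteins bind unfolded stretches of other proteins in a cycle driven by ATP. HSP40 (J-domain) proteins deliver clients and start ATP hydrolysis, while HSP110 and BAG proteins exchange the nucleotide so that clients are released. Partly folded clients pass through the adaptor STIP1 to HSP90, whose co-chaperones set the pace of its cycle. The androgen receptor and the related steroid receptors are classical HSP90 clients, held in a hormone-binding form with FKBP4 and PTGES3. Small heat shock proteins hold unfolded proteins without ATP, HSPD1 with HSPE1 forms the folding chamber of the mitochondrion, and HSF1 is the main activator of the cytosolic genes on heat or proteotoxic stress.

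Library totals ran from 14791602 to 20690819 counts. Levels are given as CPM, a count scaled so that all libraries have 1 effective size (TMM). The summed level of the 38 genes was 9562 and 9596 CPM in the C4-2 libraries with R1881, 15606 and 15941 with namoline, 14453 and 11425 with TCE-5002, and 13052 and 13883 with the combination. It was 6966 and 7482 CPM in the R1881 libraries labelled LNCaP and 10183 and 10713 with the combination there. The treated libraries therefore lay above both R1881 libraries of their own label, and the 2 TCE-5002 libraries differed from each other more than any other pair. In bulk RNA, fewer cells of a type and less RNA per cell cannot be told apart.

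Some libraries stood apart from their labels. In the file of combination replicate 1 labelled LNCaP, the count column is named for namoline only, with no mention of TCE-5002. It was kept in its labelled group. Counts of changed members under that label and many values of single members are given with and without it. Values of the other gene lists are given only with it. The libraries labelled LNCaP also lacked much of the luminal epithelial profile of that line. CDH1, the epithelial cadherin, was at 33.9 to 45.3 CPM there against 579 to 990.3 in the C4-2 libraries, EPCAM at 1.88 to 4.07 CPM against 109.7 to 186, and the mesenchymal filament gene VIM at 610.4 to 735 CPM against 1.18 to 4.79. Not every marker lay that way, since the luminal antigen gene KLK3 was at 404 and 357 CPM in the R1881 libraries labelled LNCaP against 206 and 224 in those of C4-2, and the mesenchymal collagen gene COL1A1 at 2.58 to 4.97 CPM against 37 to 84.7. The summed level of 6 mesenchymal genes was 726 to 875 CPM against 64.4 to 101 in C4-2. They are called the libraries labelled LNCaP throughout. Luminal markers also moved with treatment. The summed level of 9 luminal genes, all detected in every library, was 2987 to 3146 CPM in C4-2 with R1881, 3019 to 3385 with namoline, 4200 to 4371 with TCE-5002 and 2077 to 2123 with the combination, and it was 792 to 866 and 329 to 429 CPM in the R1881 and combination libraries labelled LNCaP. Its part in the chaperone results was not tested. Replicates also differed with the GC content of genes, most of all the 2 TCE-5002 libraries (Spearman rho of -0.803 across genes between GC content and the replicate difference).

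Heat shock factors bind repeated GAA units in alternating orientation. The letters GAANNTTCNNGAA, searched on both strands from 250 bases before to 50 bases after each RefSeq start site (GRCh38.p14), were found in at least 1 promoter of 8 of the 34 chaperone genes with an entry, or 23.5%, against 166 of all 27305 genes counted the same way, or 0.608%. By promoter these were 8 of 49 for the chaperone genes and 172 of 35116 in all, or 0.49%. The shorter letters GAANNTTC or TTCNNGAA, which lie within the longer ones, were found for 19 of the 34 genes, or 55.9%, against 16.2% of all genes (13.5% of all promoters). The windows below, written 5′ to 3′ on the strand of the gene with the matched letters in capitals, are shown because they belong to the abundant HSP70 and HSP90 genes, to CHORDC1 and to HSPD1, whose levels are described next.
HSPA8, chr11:123062171-123062199, minus strand, first capital at -55 from the start site: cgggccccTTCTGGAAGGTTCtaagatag
HSP90AA1, chr14:102087112-102087140, minus strand, first capital at -88: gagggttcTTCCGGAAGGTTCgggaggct
HSP90AB1, chr6:44247823-44247851, plus strand, first capital at -112: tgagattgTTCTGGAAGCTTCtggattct
CHORDC1, chr11:90223084-90223112, minus strand, first capital at -60, with 3 overlapping matches: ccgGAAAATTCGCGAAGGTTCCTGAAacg
HSPD1, chr2:197500062-197500090, minus strand, first capital at -245, with 2 overlapping matches: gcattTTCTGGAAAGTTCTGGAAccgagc
In the annotation of the deposited tables the HSPA8, HSP90AA1 and CHORDC1 windows fall in exons of the same gene, the HSP90AB1 window in an intron of it, and the HSPD1 window in exons of both HSPD1 and its divergent neighbour HSPE1. A second match lay in the same region for HSPA8 and for HSP90AB1, and HSPA6, DNAJA1 and DNAJB6 held 1 each. The other genes with an entry held none of the longer letters, among them HSPA1B, HSPH1, HSPA4L, BAG3, DNAJB1, HSPB1 and HSPB8. FKBP4 had no entry. A match describes letters and does not show binding.

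Of the 38 genes, 35 had enough counts to be tested in C4-2. With namoline, 20 were higher and 1 was lower than with R1881 (edgeR's quasi-likelihood test, adjusted p under 0.05), where 18.7% of all genes tested were higher and 16.3% lower. The median log2 fold change of the 35 was 0.67, against 0.00 over all genes. Of these, 10 were at least 2-fold higher and none was 2-fold lower, against 5.17% and 6.88% of all genes. With TCE-5002, 19 were higher and 4 lower (19.9% and 16.7% of all genes), 6 of them at least 2-fold higher and none 2-fold lower (5.04% and 6.8% of all genes), with a median of 0.40. With the combination, 24 were higher and 1 lower (24.8% and 25.6%, or 50.3% together, of all genes), 10 of them at least 2-fold higher (8.87%), with a median of 0.55. The 3 comparisons share the R1881 libraries. The TCE-5002 count rested in part on R1881 replicate 1, without which 15 genes changed in place of 23, and 2 in place of 4 were lower without either R1881 library. With namoline, 3 in place of 1 were lower without TCE-5002 replicate 1.

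**Figure D1:**
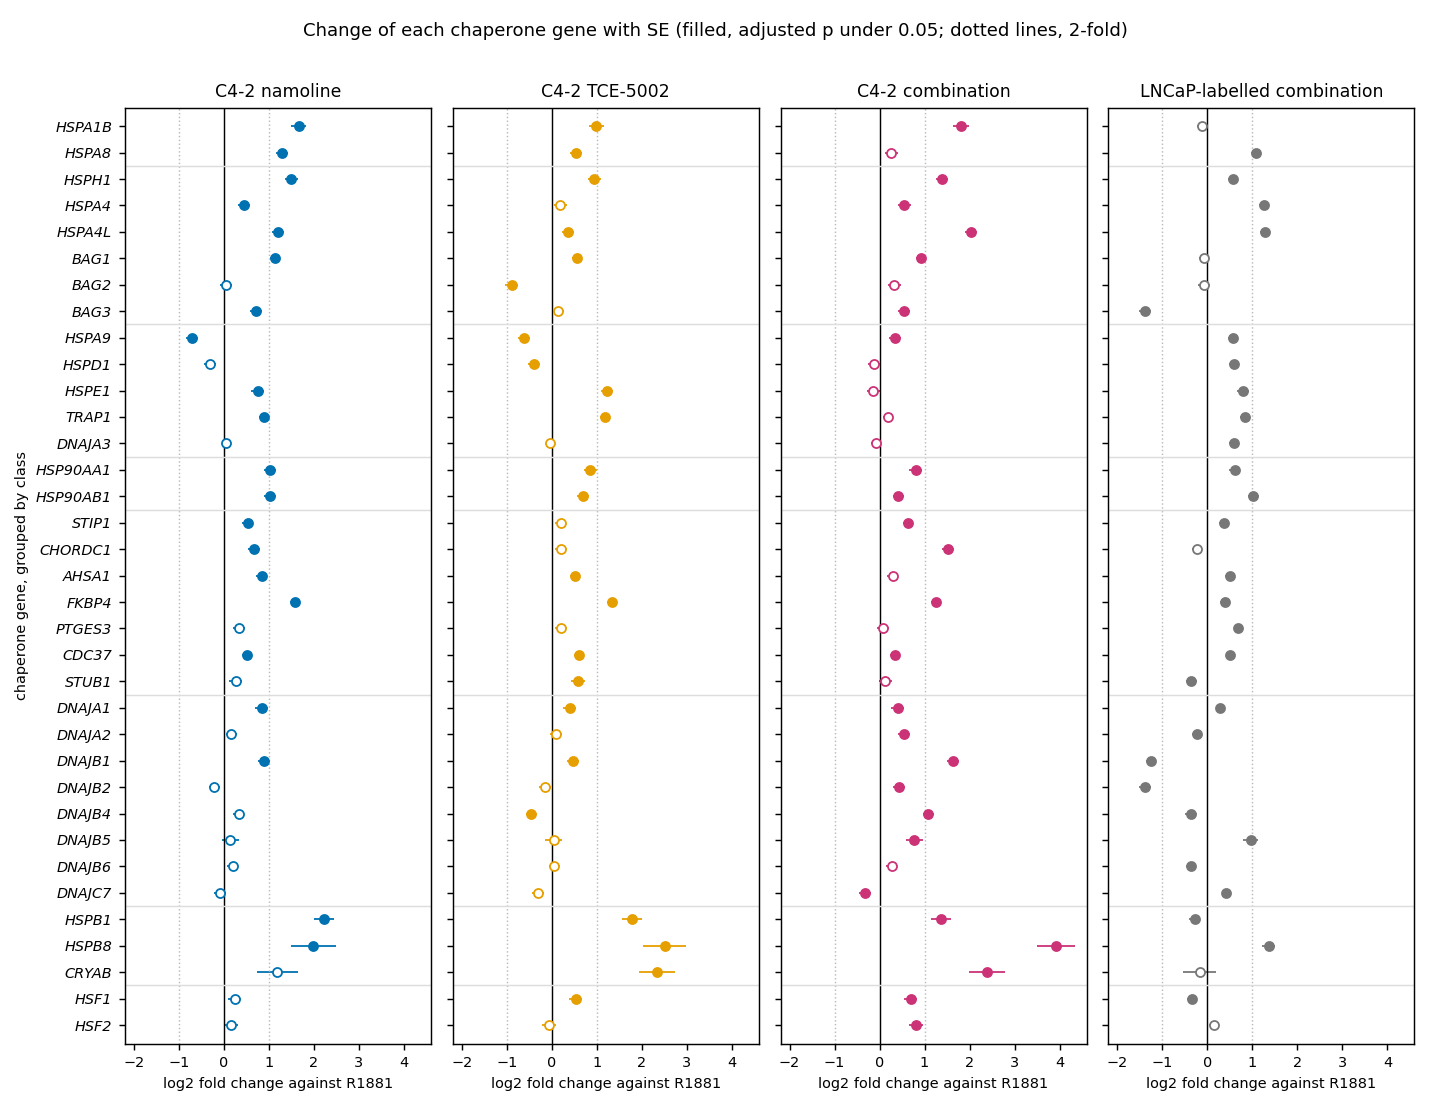
Log2 fold change against R1881 (x axis) with its SE for each of the 35 genes tested in C4-2 (y axis, grouped by class), in 4 panels, which hold C4-2 with namoline, TCE-5002 and the combination and, last, the combination under the LNCaP label. Filled points passed an adjusted p of 0.05. Most points lie to the right of 0 in the 3 C4-2 panels, with 20, 19 and 24 genes higher, whereas DNAJB1, DNAJB2 and BAG3 lie below -1 in the panel labelled LNCaP.

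Both HSP70 genes that could be tested in C4-2 rose with each single inhibitor, and HSPA1B but not HSPA8 was called with the combination. HSPA8 (chr11:123057489-123063230, minus strand), the constitutive cytosolic HSP70, stood at 1048 and 1177 CPM in C4-2 with R1881, 2763 and 2763 with namoline, 1897 and 1381 with TCE-5002 and 1296 and 1394 with the combination. Both namoline libraries were far above every other C4-2 library, and the combination libraries came close to those with R1881. The log2 fold change was 1.29 ± 0.14 (SE) with namoline (adjusted p = 8.72e-06) and 0.54 ± 0.14 with TCE-5002 (adjusted p = 0.00747), and with the combination it was 0.26 ± 0.14, which did not pass (95% interval -0.01 to 0.53, adjusted p = 0.129). The TCE-5002 value was 0.46 without R1881 replicate 1, where the call was lost (adjusted p = 0.103), and 0.30 without TCE-5002 replicate 1. With only the R1881 and combination libraries in the fit, the combination value of HSPA8 passed (0.26, adjusted p = 0.00408), as it did without either TCE-5002 library (0.26) and with a correction for GC content (0.32).

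HSPA1B (chr6:31827735-31830255, plus strand), a stress-inducible HSP70, was at 32.4 and 37.5 CPM with R1881, 92.8 and 131 with namoline, 68.6 and 71.8 with TCE-5002 and 102 and 145 with the combination. All 6 treated libraries lay above both R1881 libraries. Its log2 fold change was 1.66 ± 0.17 with namoline (adjusted p = 6.12e-06), 0.99 ± 0.17 with TCE-5002 (adjusted p = 0.000522) and 1.81 ± 0.17 with the combination (adjusted p = 1.51e-06). HSPA1A is a near-identical copy of HSPA1B, and reads that match both were left uncounted. It held 2 to 10 counts per library, between 0.0914 and 0.62 CPM, and was not tested, so the value of HSPA1B is uncertain as a value of 1 copy. HSPA6, another inducible HSP70, held 0 to 2 counts per C4-2 library and was not tested there.

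Of the 3 HSP110 genes, HSPH1 and HSPA4L were called higher in all 3 C4-2 comparisons and HSPA4 with namoline and the combination. HSPH1 was at 198 and 189 CPM with R1881, 548 and 565 with namoline, 446 and 312 with TCE-5002 and 503 and 521 with the combination. No treated library overlapped the R1881 libraries, and the 2 TCE-5002 libraries were the lowest of the treated ones. Its log2 fold change was 1.5 ± 0.14, 0.95 ± 0.14 and 1.39 ± 0.14 in that order of treatments (adjusted p = 2.03e-06, 0.000132 and 2.15e-06). HSPA4L was at 52.5 and 55.1 CPM with R1881, 133 and 121 with namoline, 80.2 and 60.9 with TCE-5002 and 221 and 221 with the combination. The combination libraries were the highest, with a log2 fold change of 2.03 ± 0.13 (adjusted p = 4.12e-08) and of 0.81 ± 0.13 against namoline (adjusted p = 7.57e-05). Its call with TCE-5002 (0.37 ± 0.13, adjusted p = 0.0372) was lost without any one of 7 of the 8 libraries, to 0.16 without TCE-5002 replicate 1. HSPA4 was at 342 and 332 CPM with R1881, 478 and 457 with namoline, 465 and 316 with TCE-5002 and 493 and 501 with the combination. TCE-5002 replicate 2 lay below both R1881 libraries, and the other treated libraries lay above them. The rise with the combination was 0.55 ± 0.14 on the log2 scale (adjusted p = 0.00523), and TCE-5002 did not pass (0.19 ± 0.14, 95% interval -0.09 to 0.47, adjusted p = 0.32), though it did without TCE-5002 replicate 2 (0.44) and with the correction for GC content (0.28). The namoline call (0.45 ± 0.14, adjusted p = 0.0232) was lost without either R1881 library, either namoline library or combination replicate 2 (0.39 to 0.48) and with total count scaling (0.30).

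Among the BAG genes, BAG1 was at 50.4 and 52.3 CPM with R1881, 116 and 114 with namoline, 81.0 and 73.3 with TCE-5002 and 95.3 and 103 with the combination. It rose in each, with log2 fold changes of 1.14 ± 0.11, 0.57 ± 0.11 and 0.93 ± 0.11. BAG3, which couples HSP70 to selective autophagy with HSPB8, was at 42.4 and 46.6 CPM with R1881, 66.4 and 81.2 with namoline, 46.2 and 53.6 with TCE-5002 and 63.7 and 67.7 with the combination. The namoline and combination libraries lay above the R1881 libraries, with log2 fold changes of 0.71 ± 0.13 (adjusted p = 0.000789) and 0.55 ± 0.13 (adjusted p = 0.00295). The combination call of BAG3 was lost without R1881 replicate 1 (0.48, adjusted p = 0.0532). BAG2, an inhibitor of the ubiquitin ligase STUB1, was at 57.1 and 51.0 CPM with R1881, 33.9 and 25.4 with TCE-5002 and 69.3 and 67.9 with the combination. It fell by 0.89 ± 0.14 on the log2 scale with TCE-5002 (adjusted p = 0.000219), and its combination value of 0.33 ± 0.14 did not pass (adjusted p = 0.0542) but passed in 7 alternatives (0.32 to 0.36) and without either TCE-5002 library. An opposite-strand gene, RAB23, covers 42.7% of its exon bases, where fragments were left uncounted because the counting did not use strand.

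Both HSP90 genes rose in all 3 C4-2 comparisons. HSP90AA1 (chr14:102080738-102139699, minus strand) was at 1469 and 1429 CPM with R1881, 3068 and 2928 with namoline, 3150.5 and 2195 with TCE-5002 and 2526 and 2571 with the combination. HSP90AB1 (chr6:44246166-44253888, plus strand) was at 991 and 989.6 CPM with R1881, 2027 and 2049 with namoline, 1841 and 1419 with TCE-5002 and 1289 and 1376 with the combination. No treated library of either gene fell among the R1881 libraries, and the 2 TCE-5002 libraries were again far apart. The log2 fold change of HSP90AA1 was 1.03 ± 0.14, 0.86 ± 0.14 and 0.80 ± 0.14 with namoline, TCE-5002 and the combination (adjusted p = 8.51e-05, 0.000382 and 0.000353). That of HSP90AB1 was 1.02 ± 0.13, 0.70 ± 0.13 and 0.42 ± 0.12 (adjusted p = 2.7e-05, 0.00066 and 0.0125). The combination call of HSP90AB1 was lost without either R1881 library or without combination replicate 2 (0.40 to 0.41, adjusted p = 0.0804 to 0.0926).

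Of the 7 HSP90 co-chaperones, 5 were higher with namoline, 4 with TCE-5002 and 4 with the combination, where 18.7%, 19.9% and 24.8% of all genes were, and none was lower in any of the 3 (16.3%, 16.7% and 25.6% of all genes). FKBP4, an immunophilin of steroid receptor complexes, was at 162 and 165 CPM with R1881, 487 and 509.6 with namoline, 449 and 394 with TCE-5002 and 383 and 405 with the combination. All 6 treated libraries were well above both R1881 libraries, with log2 fold changes of 1.58 ± 0.11, 1.34 ± 0.11 and 1.25 ± 0.11 (adjusted p = 1.11e-07, 1.03e-06 and 6.43e-07). AHSA1, which stimulates the ATPase of HSP90, was at 106 and 101 CPM with R1881, 186 and 191 with namoline, 169.8 and 133 with TCE-5002 and 125 and 132 with the combination. It rose with namoline (0.84 ± 0.12, adjusted p = 9.63e-05) and with TCE-5002 (0.52 ± 0.12, adjusted p = 0.00343, and 0.34 without TCE-5002 replicate 1). Its combination value of 0.29 ± 0.12 did not pass (adjusted p = 0.0529) but passed in 6 alternatives (0.29 to 0.34) and without either TCE-5002 library. CHORDC1, an HSP90-binding protein, was at 41.1 and 42.5 CPM with R1881, 65.0 and 69.6 with namoline, 55.2 and 42.3 with TCE-5002 and 112 and 129 with the combination. The combination libraries were above all others, with a log2 fold change of 1.52 ± 0.13 (adjusted p = 6.54e-07) and of 0.85 ± 0.13 against namoline (adjusted p = 5.76e-05). STIP1 rose with namoline and the combination (0.53 ± 0.12 and 0.63 ± 0.12), the kinase-loading factor CDC37 rose in all 3 (0.34 to 0.61), and PTGES3 passed in none (0.07 to 0.33). The ubiquitin ligase STUB1 rose with TCE-5002 (0.59 ± 0.15, adjusted p = 0.00726), and 42.4% of its exon bases are shared with the opposite-strand gene JMJD8.

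**Figure D2:**
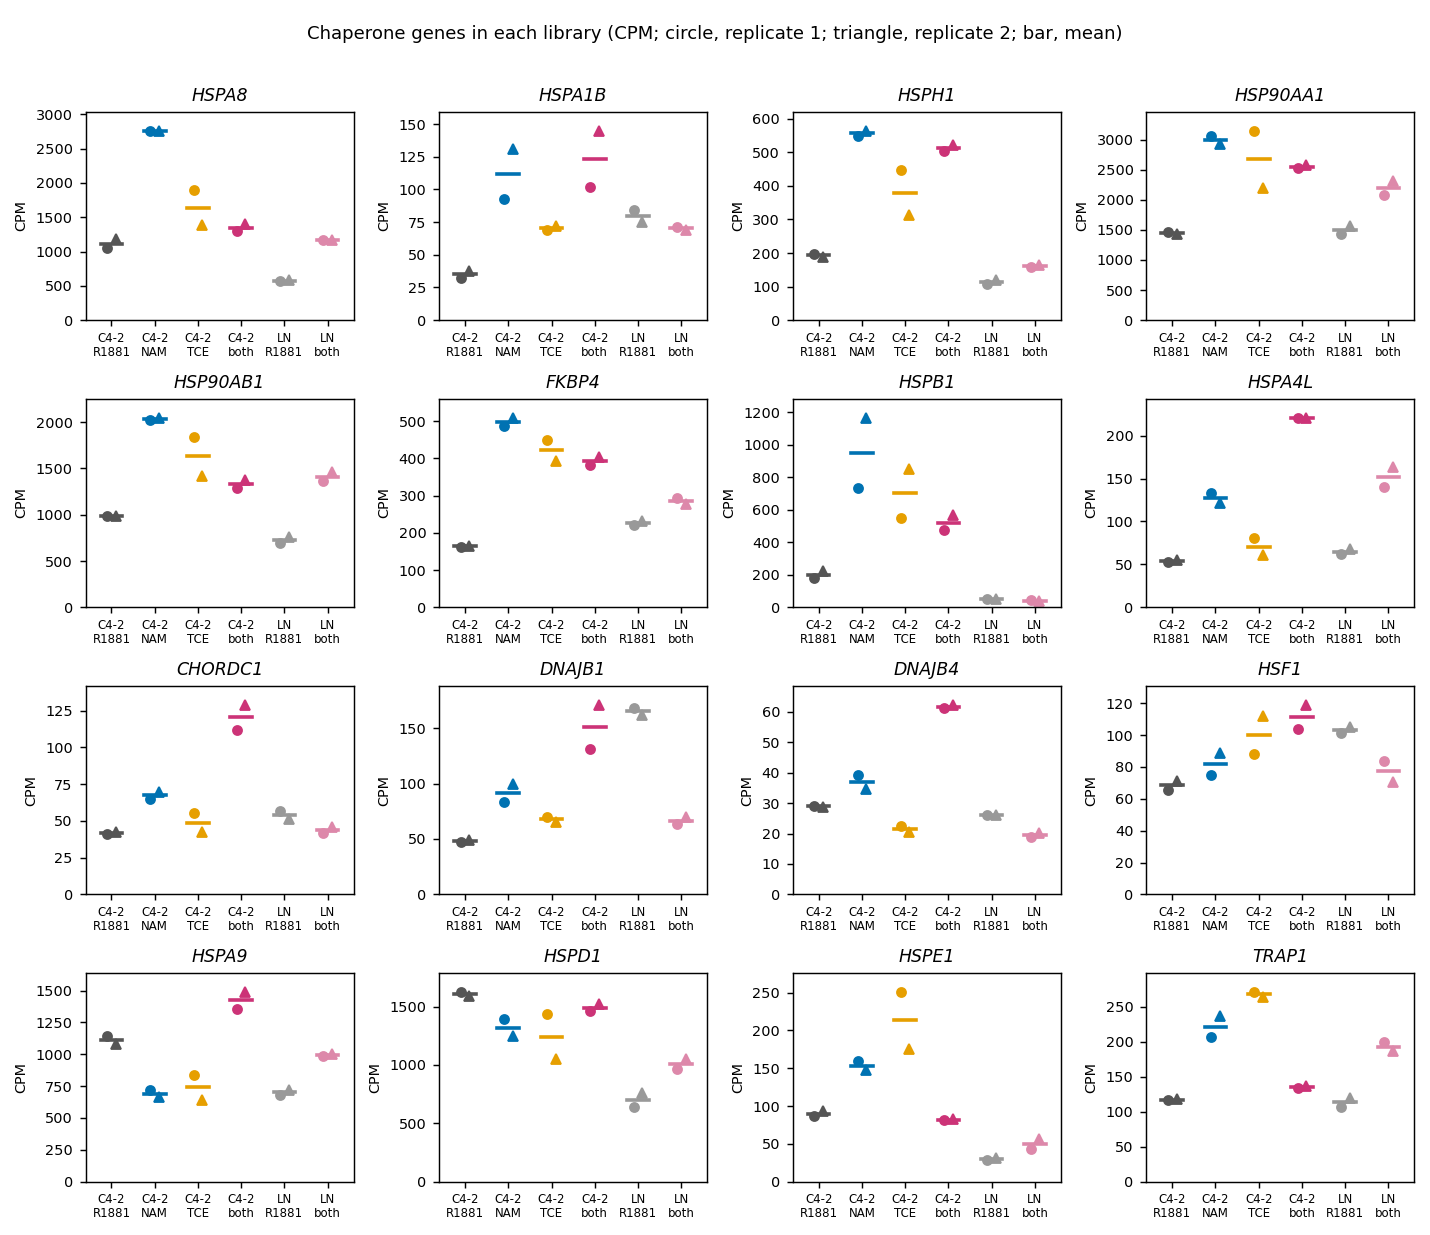
Level in CPM (y axis, from 0) of 16 chaperone genes in each of the 12 libraries (x axis, by group; NAM, namoline; TCE, TCE-5002; both, the combination; LN, libraries labelled LNCaP), with circles for replicate 1, triangles for replicate 2 and bars for the mean. HSPA8 peaks with namoline at 2763 CPM in both libraries, DNAJB1, CHORDC1 and DNAJB4 are highest within C4-2 in the combination libraries, and the combination libraries of HSPE1 (81.6 and 82.3 CPM) and TRAP1 (133 and 136 CPM) lie near those with R1881, the first below them and the second above.

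Of the 8 cytosolic J-domain genes tested, 2 were higher with namoline (18.7% of all genes), 2 were higher and 1 lower with TCE-5002 (19.9% and 16.7%), and 6 were higher and 1 lower with the combination (24.8% and 25.6%). DNAJB1 (chr19:14514770-14529770, minus strand), the main heat-inducible HSP40, was at 47.2 and 49.1 CPM with R1881, 83.1 and 99.6 with namoline, 69.6 and 65.7 with TCE-5002 and 131 and 171 with the combination. Its groups did not overlap, and the order of the log2 fold changes was 0.47 ± 0.13 with TCE-5002 (adjusted p = 0.0131), 0.90 ± 0.13 with namoline (adjusted p = 0.000135) and 1.63 ± 0.13 with the combination (adjusted p = 4.15e-07). The combination exceeded namoline by 0.73 ± 0.13 (adjusted p = 0.000258). TECR overlaps 5.75% of the exon bases of DNAJB1 on the opposite strand. DNAJB4 was at 29.1 and 28.7 CPM with R1881, 39.1 and 34.5 with namoline, 22.5 and 20.4 with TCE-5002 and 61.1 and 62.3 with the combination. It rose by 1.08 ± 0.12 with the combination (adjusted p = 7.45e-06) and fell by 0.45 ± 0.13 with TCE-5002 (adjusted p = 0.0124). DNAJB2 was at 60.4 and 65.4 CPM with R1881 and 78.0 and 93.7 with the combination (0.43 ± 0.13, adjusted p = 0.0106). The TCE-5002 calls of DNAJB1 and DNAJB4 were lost without either R1881 library (0.44 and 0.50 for DNAJB1, -0.44 and -0.45 for DNAJB4), and the combination call of DNAJB2 was lost without R1881 replicate 1 (0.37) or combination replicate 2 (0.33). DNAJA1 rose in all 3 comparisons (0.40 to 0.84), DNAJA2 and DNAJB5 rose with the combination (0.55 ± 0.13 and 0.77 ± 0.19), DNAJC7 fell with it (-0.32 ± 0.13), DNAJB6 passed in none, and DNAJA4, at 2 to 12 counts per library, was not tested.

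In each of the 3 C4-2 comparisons against R1881, the largest log2 fold change of the set belonged to a small heat shock protein gene. HSPB1 (chr7:76302544-76304295, plus strand), which encodes HSP27, was at 178 and 224 CPM with R1881, 735 and 1166 with namoline, 550.4 and 849.8 with TCE-5002 and 477 and 565 with the combination. Replicates of the single treatments were far apart, but every treated library lay above both R1881 libraries. The log2 fold change was 2.22 ± 0.22, 1.79 ± 0.22 and 1.36 ± 0.22 (adjusted p = 3.8e-06, 3.17e-05 and 0.000131). HSPB8 was at 0.187 and 0.576 CPM with R1881, from 4 and 9 counts, and at 1.88 and 1.02 with namoline, 2.36 and 1.82 with TCE-5002 and 5.32 and 5.77 with the combination, the last from 96 and 93 counts. The groups with a single inhibitor overlapped each other but not the R1881 or combination libraries, and the log2 fold change of the combination was 3.92 ± 0.42 (adjusted p = 4.42e-06). Its namoline call (1.99 ± 0.50, adjusted p = 0.00673) was lost without R1881 replicate 1 (1.31) or namoline replicate 1 (1.45). CRYAB rose from 7 and 7 counts with R1881 to 36 and 39 with TCE-5002 and 37 and 32 with the combination, or from 0.327 and 0.448 CPM to 1.89 and 2.09 and to 2.05 and 1.99. Both changes passed (2.35 ± 0.40 and 2.38 ± 0.40), and the level was low throughout. HSPB2, on the opposite strand, overlaps 20.6% of its exon bases. Per kilobase of exon the mean level of HSPB1 with namoline was 582 CPM against 569.8 for HSPA8, 571 for HSP90AA1 and 684 for HSP90AB1. With R1881 it was 123 CPM per kilobase against 229, 276 and 332. The namoline mean of HSPB1 joins libraries at 735 and 1166 CPM, so its order among these genes is uncertain.

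Mitochondrial chaperones did not move as 1 group. HSPA9, the mitochondrial HSP70 (mortalin), was at 1146 and 1081 CPM with R1881, 718 and 661 with namoline, 839 and 642 with TCE-5002 and 1357 and 1489 with the combination. It lay below R1881 with each single inhibitor, by 0.71 ± 0.13 and 0.61 ± 0.13 on the log2 scale (adjusted p = 0.000689 and 0.00206), and above R1881 with the combination. The combination value against R1881 (0.34 ± 0.13, adjusted p = 0.0387) was no longer called without any one of 6 of the 8 libraries (0.30 to 0.39), while that against namoline was 1.05 ± 0.13 (adjusted p = 8.79e-06). HSPD1 (chr2:197486581-197516737, minus strand), which encodes HSP60, was at 1625 and 1589.5 CPM with R1881, 1393 and 1244 with namoline, 1437 and 1049 with TCE-5002 and 1458 and 1524 with the combination. All treated libraries were below both R1881 libraries. The namoline value (-0.31 ± 0.14, adjusted p = 0.0963) did not pass but passed in 6 alternatives (-0.46 to -0.25, adjusted p = 0.0116 to 0.0457), among them total count scaling and the fit of only the groups compared, and without either TCE-5002 library. TCE-5002 was called (-0.39 ± 0.14, adjusted p = 0.0354), and that call was lost in the fit of only the groups compared (adjusted p = 0.0772) and without TCE-5002 replicate 2 (-0.18), combination replicate 1 or 2 (-0.39) or R1881 replicate 1 (-0.38) or 2 (-0.40).

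HSPE1 (chr2:197499994-197503457, plus strand), the HSP10 lid of the HSPD1 chamber, shares 281 exon bases with HSPD1 in the deposited annotation and others with the readthrough gene HSPE1-MOB4. It was at 86.2 and 92.9 CPM with R1881, 159 and 148 with namoline, 251 and 176 with TCE-5002 and 81.6 and 82.3 with the combination. HSPE1 thus rose with each single inhibitor (0.75 ± 0.14, adjusted p = 0.00085, and 1.23 ± 0.14, adjusted p = 1.86e-05) where HSPD1 did not, and the combination libraries fell just under those with R1881 (-0.14 ± 0.14, 95% interval -0.42 to 0.13). TRAP1, the mitochondrial HSP90, was at 116 and 118 CPM with R1881, 207 and 236 with namoline, 271 and 264 with TCE-5002 and 133 and 136 with the combination. Its log2 fold change was 0.90 ± 0.11, 1.18 ± 0.11 and 0.19 ± 0.11 (adjusted p = 1.82e-05, 2.37e-06 and 0.143). Both combination libraries lay above both R1881 libraries, and with only those groups in the fit the combination value passed (0.19, adjusted p = 0.0162), as it did without either TCE-5002 library (0.19 and 0.20). DNASE1 overlaps 29.3% of the exon bases of TRAP1 on the opposite strand, and fragments there were left uncounted. The mitochondrial J-domain gene DNAJA3 was between 146 and 171 CPM in all 8 C4-2 libraries and passed in none of the 3 comparisons.

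Messenger RNA of the heat shock factors moved with the combination. HSF1 was at 65.6 and 71.3 CPM with R1881, 75.0 and 88.9 with namoline, 88.3 and 112 with TCE-5002 and 104 and 119 with the combination. HSF2 was at 20.8 and 22.4 CPM with R1881, 24.7 and 24.2 with namoline, 24.9 and 17.3 with TCE-5002 and 38 and 38.6 with the combination. The combination libraries were above those with R1881 for both genes, by 0.69 ± 0.14 for HSF1 (adjusted p = 0.000799) and 0.81 ± 0.16 for HSF2 (adjusted p = 0.000575). The TCE-5002 call of HSF1 (0.53 ± 0.14, adjusted p = 0.00734) was lost without R1881 replicate 1 (0.47) and after correction for GC content (0.18, adjusted p = 0.0733), and it was 0.35 without TCE-5002 replicate 2. These are transcript levels, and HSF1 is regulated mainly as a protein.

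The combination was next set against the sum of the single treatments on the log2 scale (the interaction, in which both single effects are subtracted from the combination effect). Of the 35 genes, 15 had an interaction below 0 and 7 above 0 (27.9% and 25.6% of all genes, or 53.5% together), and 9 and 3 of them were past 2-fold (18.6% and 16.7% of all genes). Below 0 by over 2-fold were HSPB1 (-2.64 ± 0.30), HSPE1 (-2.12 ± 0.20), TRAP1 (-1.89 ± 0.15), FKBP4 (-1.67 ± 0.15), HSPA8 (-1.57 ± 0.20), HSP90AB1 (-1.30 ± 0.18), HSP90AA1 (-1.09 ± 0.20), AHSA1 (-1.07 ± 0.17) and HSPH1 (-1.06 ± 0.19), with adjusted p from 1.5e-07 to 0.000387. For HSPA8, HSPE1, TRAP1 and AHSA1 the combination was also below namoline alone (-1.03 ± 0.14, -0.89 ± 0.14, -0.71 ± 0.11 and -0.55 ± 0.12). So it was for HSPB1, HSP90AB1 and FKBP4 (-0.86 ± 0.21, -0.60 ± 0.12 and -0.33 ± 0.11), though the calls of HSPB1 and FKBP4 depended on single libraries. Above 0 by over 2-fold were HSPA9 (1.66 ± 0.18), DNAJB4 (1.21 ± 0.18) and BAG2 (1.17 ± 0.19), and CHORDC1, DNAJB2, HSF2 and HSPD1 were above 0 by less. DNAJB1 (0.26 ± 0.19, adjusted p = 0.255) and HSPA4L (0.44 ± 0.18, adjusted p = 0.0504) did not pass. DNAJB1 passed with the correction for GC content (0.49, adjusted p = 0.00555), also with the replicate block. HSPA4L passed in 5 alternatives, which were DESeq2 and RLE scaling (0.49 in both), the likelihood ratio test (0.44), total count scaling (0.57) and the replicate block (0.45), with adjusted p from 0.0135 to 0.0454, and without TCE-5002 replicate 1 (0.67). The calls of HSPA1B (-0.84 ± 0.24) and CHORDC1 (0.65 ± 0.18) were lost without combination replicate 1 or namoline replicate 2 (-0.63 and -0.57) and without combination replicate 2 (0.59), respectively. That of HSF2 (0.71 ± 0.22) was lost without namoline replicate 2 (0.69) or R1881 replicate 2 (0.64), and that of HSPD1 (0.58 ± 0.19) without either combination library (0.58 and 0.59), either R1881 library (0.55 and 0.58) or namoline replicate 2 (0.50). Without TCE-5002 replicate 2 both passed with smaller values (0.46 and 0.36).

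**Figure D3:**
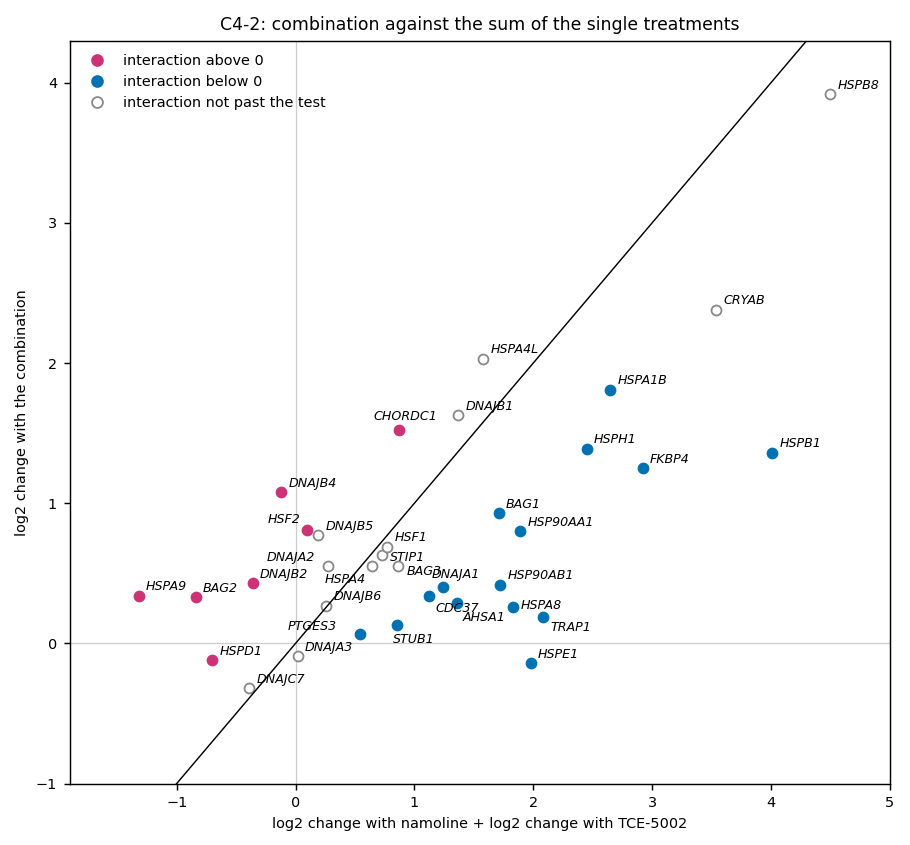
Log2 fold change with the combination in C4-2 (y axis) against the sum of the log2 fold changes with namoline and with TCE-5002 (x axis) for 35 genes, where the line marks equality. Blue points, 15 genes with an interaction below 0, include HSPB1, HSPE1, TRAP1 and HSPA8 far right of the line, and red points, 7 genes above 0, include HSPA9 and DNAJB4 left of it. The axes share the R1881 libraries.

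In direct comparison with namoline, 12 genes were higher and 8 lower with the combination (26.9% and 29.0% of all genes), with a median of 0.07. Together these were 20 of 35, or 57.1%, against 55.9% of all genes. The 8 lower genes were HSPA8, HSPE1, TRAP1, HSP90AB1, AHSA1, FKBP4, DNAJA1 and HSPB1, and 5 were lower without namoline replicate 2. The calls of FKBP4 (-0.33 ± 0.11) and HSPB1 (-0.86 ± 0.21) depended on single libraries, the first being lost without any combination or namoline library (-0.29 to -0.34) and the second without namoline replicate 2 (-0.49, adjusted p = 0.0824). Against TCE-5002, 17 were higher and 4 lower (26.4% and 28.7%, or 55.1% together), with a median of 0.27. By at least 2-fold, 6 were higher and 1 lower (11.7% and 14.3%, or 26.1% together), or 6 and 2 with total count scaling. The count of changed genes was 13 in place of 21 without combination replicate 2, of which 11 were higher and 2 lower. Without combination replicate 1, 2 were lower, and without TCE-5002 replicate 2, 15 were higher and 8 lower.

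In the libraries labelled LNCaP, 36 of the 38 genes could be tested. The combination raised 20 and lowered 9 of them (28.0% and 28.2% of all genes), with a median of 0.38, and 5 were at least 2-fold higher and 3 at least 2-fold lower (7.44% and 11.3% of all genes). Without combination replicate 1, whose column names namoline only (the doubtful library below), 20 were higher and 7 lower, and 6 and 3 were past 2-fold. Without R1881 replicate 2, 20 were higher and 3 lower, the 3 being DNAJB1, BAG3 and DNAJB2. Scaling by total counts gave 3 and 3 past 2-fold.

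HSPA8 was at 564 and 591 CPM with R1881 in these libraries and at 1165 and 1161 with the combination. Its rise of 1.07 ± 0.11 on the log2 scale (adjusted p = 1.43e-09; 1.05 without the doubtful library) contrasts with 0.26 in C4-2. HSP90AB1 went from 691 and 759 to 1362 and 1458 CPM (1.02 ± 0.12; 1.05 without it) and HSP90AA1 from 1432 and 1571 to 2084 and 2307 CPM (0.61 ± 0.12; 0.67). HSPA4 went from 137 and 159.6 to 342 and 333 CPM (1.25 ± 0.11; 1.21) and HSPA4L from 61.8 and 67.7 to 140 and 163 CPM (1.28 ± 0.11; 1.37). No combination library overlapped an R1881 library for these genes. HSPH1 rose less, from 108 and 120.5 to 159 and 165 CPM (0.56 ± 0.10; 0.57), and HSPB8 rose from 13.4 and 15.7 to 34.9 and 36.5 CPM (1.36 ± 0.14; 1.37).

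All 5 mitochondrial genes were called higher there, where 28.0% of all genes were. HSPE1 went from 28.8 and 31.0 to 42.6 and 56.8 CPM (0.79 ± 0.13; 0.97 without the doubtful library) and TRAP1 from 107 and 119 to 200 and 186 CPM (0.83 ± 0.10; 0.76). HSPD1 went from 635 and 755 to 961 and 1048 CPM (0.59 ± 0.12; 0.64), HSPA9 from 682 and 719 to 986 and 1001 CPM (0.56 ± 0.11; 0.56), and DNAJA3 rose by 0.59 ± 0.10. The groups did not overlap for any of them.

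DNAJB1, BAG3 and DNAJB2 fell by over 2-fold, and STUB1, DNAJA2 and DNAJB6 were lower by less (-0.37 to -0.24) and were no longer called without R1881 replicate 2. DNAJB1 was at 168 and 162 CPM with R1881 and 63.1 and 69.4 with the combination, a log2 fold change of -1.26 ± 0.10 (adjusted p = 8.45e-12; -1.21 without the doubtful library). BAG3 went from 46.1 and 52.5 to 18.1 and 18.1 CPM (-1.38 ± 0.13; -1.40) and DNAJB2 from 56.2 and 49.2 to 21.4 and 17.3 CPM (-1.39 ± 0.13; -1.56). HSPA1B was at 84.2 and 74.7 CPM with R1881 and 71.3 and 69.1 with the combination, and CHORDC1 at 56.8 and 51.5 and then 41.7 and 46.2 CPM. Their changes of -0.12 ± 0.11 (95% interval -0.33 to 0.09) and -0.24 ± 0.11 did not pass. DNAJB4 (-0.36 ± 0.13, adjusted p = 0.0225) was no longer called without combination replicate 1 or either R1881 library (-0.32 to -0.38). The falls of HSPB1, from 53.1 and 50.5 to 43.5 and 38.1 CPM (-0.28 ± 0.12, adjusted p = 0.0377), and of HSF1, from 101 and 105 to 83.7 and 70.7 CPM (-0.35 ± 0.11, adjusted p = 0.00581), were -0.18 and -0.23 without combination replicate 2 and then no longer called, as was so without R1881 replicate 2 (-0.32 for both) and, for HSPB1, without R1881 replicate 1 (-0.26). Both reversed after correction for GC content, to 0.26 and 0.20, so that no direction was taken from them.

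The difference between the lines was tested itself, as the combination effect in C4-2 minus that in the libraries labelled LNCaP. It was above 0 for 19 of 36 genes and below 0 for 9 (21.7% and 25.9% of all genes), or 28 together against 47.6%. Past 2-fold were 9 of the 36 genes, close to the share of all genes (25.3%). With all libraries in the fit, the 9 were all above 0 (11.4% of all genes above 0 and 13.9% below). They were DNAJB1 (2.83 ± 0.14), HSPB8 (2.53 ± 0.39), CRYAB (2.50 ± 0.55), HSPA1B (1.88 ± 0.16), BAG3 (1.88 ± 0.15), DNAJB2 (1.77 ± 0.16), CHORDC1 (1.70 ± 0.13), HSPB1 (1.60 ± 0.15) and DNAJB4 (1.39 ± 0.15). Without the doubtful library these values were 2.76, 2.49, 2.50, 1.89, 1.88, 1.92, 1.63, 1.69 and 1.33. That of HSF1 went from 0.99 to 1.11. Below 0 were HSPA8 (-0.86 ± 0.12), HSPA4 (-0.75 ± 0.12), HSP90AB1 (-0.65 ± 0.12), HSPE1 (-0.98 ± 0.15), HSPD1 (-0.76 ± 0.13), TRAP1 (-0.69 ± 0.12) and DNAJA3 (-0.73 ± 0.12), with PTGES3 and DNAJC7. Without the doubtful library those of HSPA8, HSPA4, HSP90AB1, HSPE1, HSPD1 and TRAP1 were -0.87, -0.74, -0.71, -1.18, -0.83 and -0.64. That of HSPE1 then lay more than 2-fold below 0. HSPA9 did not pass (-0.28 ± 0.12, adjusted p = 0.0609), though it did with no filter on low counts (-0.27, adjusted p = 0.0461). HSP90AA1 did not differ detectably (0.14 ± 0.12, adjusted p = 0.369). The line, the label doubt and any difference in dose cannot be told apart in this contrast.

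**Figure D4:**
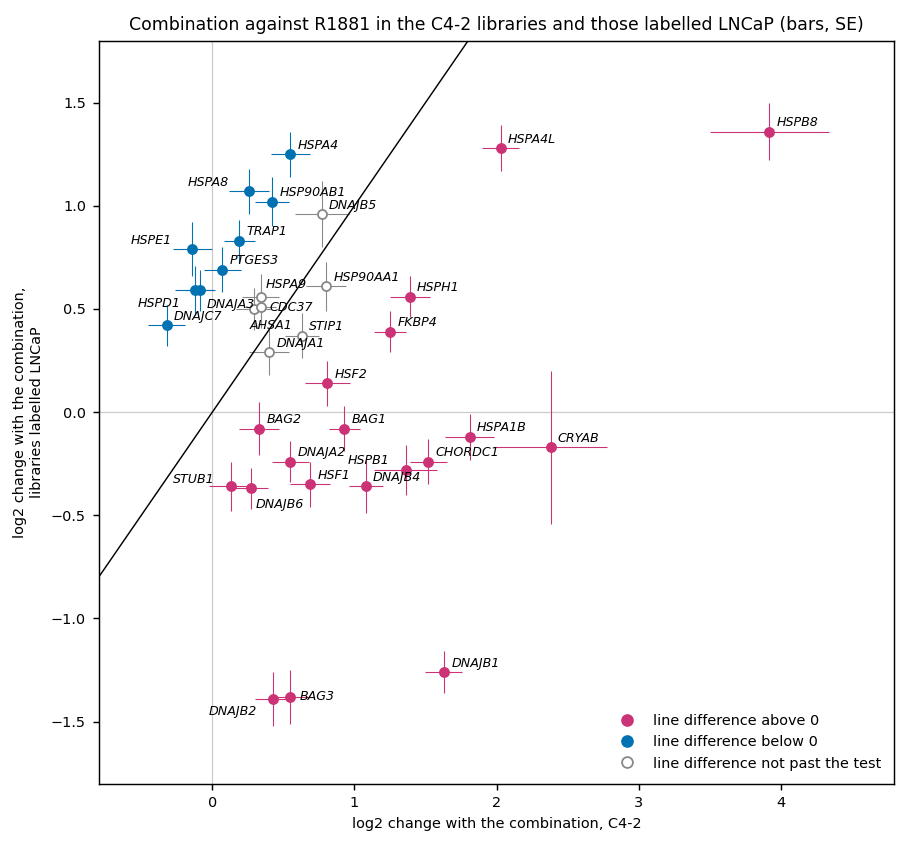
Log2 fold change with the combination against R1881 in the libraries labelled LNCaP (y axis) against that in C4-2 (x axis) for 35 genes, with bars for the SE and a line for equality. Red points, 19 genes with a larger value in C4-2, include DNAJB1, BAG3 and DNAJB2 below 0 on the y axis, and blue points, with a larger value in the libraries labelled LNCaP, include HSPA8, HSPA4, HSPE1 and TRAP1.

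With R1881 alone the 2 labels already differed in 27 of 36 genes, 15 higher and 12 lower in C4-2, against 76.8% of all genes, and 5 were higher and 6 lower by at least 2-fold (24.3% and 26.2% of all genes, or 50.5% together). HSPB1 was higher in C4-2 by 2.01 ± 0.11 on the log2 scale, HSPE1 by 1.64 ± 0.11, HSPD1 by 1.26 ± 0.09, HSPA4 by 1.24 ± 0.09 and HSPA8 by 1.00 ± 0.09. HSPB8 (-5.29 ± 0.27), CRYAB (-2.14 ± 0.43), DNAJB1 (-1.72 ± 0.10), HSF2 (-1.28 ± 0.11) and HSPA1B (-1.13 ± 0.12) were lower in C4-2. HSPA6 was detected with 28 and 29 counts in the R1881 libraries labelled LNCaP and 1 and 0 in those of C4-2. HSP90AA1 stood at nearly the same level (0.00 ± 0.09).

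Other proteostasis genes were counted by lists. Over all genes, 18.7% were higher and 16.3% lower with namoline, 19.9% and 16.7% with TCE-5002, 24.8% and 25.6% with the combination, and 28.0% and 28.2% with the combination under the LNCaP label. The 8 genes of the TRiC chaperonin, which folds actin and tubulin in the cytosol, were all higher with namoline, 4 were higher with TCE-5002 and 4 with the combination, and all 8 were higher under the LNCaP label with the combination (medians 0.54, 0.31, 0.28 and 0.80). Of the 12 chaperones of the endoplasmic reticulum, 0 were higher and 7 lower with namoline, 2 higher and 6 lower with TCE-5002, 5 higher and 2 lower with the combination, and 2 higher and 2 lower under the LNCaP label (medians -0.39, -0.29, 0.22 and 0.08). HSPA5 (BiP), the HSP70 of that compartment, had mean levels of 2296 CPM with R1881, 819.6 with namoline, 1027 with TCE-5002 and 7107 with the combination. It fell by 1.51 ± 0.12 and 1.18 ± 0.11 with the single inhibitors and rose by 1.62 ± 0.12 with both, and its interaction of 4.31 ± 0.17 was opposite in sign to that of HSPA8. The mitochondrial HSPA9 had the same order of groups as HSPA5. Among 10 other HSP90 co-chaperones, NUDC rose in all 3 C4-2 comparisons (1.28 ± 0.12, 1.14 ± 0.12 and 1.35 ± 0.12), and FKBP5, an androgen-induced immunophilin, had an interaction of -1.65 ± 0.21. Of 10 heat-inducible genes that are not chaperones, 3 were higher and 3 lower with namoline, 1 and 1 with TCE-5002, and 6 and 3 with the combination, where the autophagy receptor SQSTM1 rose by 1.57 ± 0.13. Of 15 proteasome genes, 4, 0 and 9 were higher in the same order.

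The pattern of HSPA8 over the 12 libraries, centred within each label, was compared with 10298 genes of at least 10 CPM outside the chaperone set. The chaperone genes themselves were not ranked. Most alike were IPO5, WDR3, MCM6, APEX1 and E2F3, with Pearson r from 0.973 to 0.98. Mean levels of IPO5 were 144 CPM with R1881, 217 with namoline, 173 with TCE-5002 and 155 with the combination in C4-2, and 393 and 553 CPM in the libraries labelled LNCaP. The points share libraries and depth, and the values are a description.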

How the data were processed

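Polyadenylated RNA of 12 libraries (8 C4-2, 4 labelled LNCaP) had been sequenced in paired ends, trimmed and aligned to GRCh38 with STAR by the authors. In the deposited tables each value is the raw count of fragments on a gene, which the authors obtained with featureCounts 1.5.0-p1 and Ensembl release 83, without normalisation. No strand option was set, and fragments matching several genes or places were left uncounted, which affects near-identical copies and overlapping genes. A treatment field of the labels describes siRNA work that does not match these groups, so groups were taken from the titles.

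Counts were tested with edgeR 4.0.16 (limma 3.58.1, R 4.3.3) after filterByExpr and TMM scaling, by the quasi-likelihood F test, and p-values were adjusted by Benjamini-Hochberg over every gene in the fit. The C4-2 comparisons used 8 libraries, the comparison labelled LNCaP 4, and those between the lines 8. A gene was called at an adjusted p under 0.05, and past 2-fold at an absolute log2 fold change of 1 or more. The SE was taken from the log2 fold change and its F statistic, and intervals are 1.96 SE wide on each side. The study describes the 2 libraries per group as biological replicates. The p-values rest on a spread between replicates that all groups in a fit share. That of the TCE-5002 libraries therefore enters every C4-2 comparison, save in the fits of only the groups compared. CPM used TMM factors over the 12 libraries, and intervals and shares cover no error before sequencing. The steps were tested on simulated counts.

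The members and gene lists were chosen with earlier results of these data known. Values per library are given for HSF1, HSF2, HSPA8, HSP90AA1, HSP90AB1, HSPD1, HSPE1, HSPA1A, HSPA1B, DNAJB1 and HSPH1 and for each member past 2-fold against R1881 or in the interaction, 26 in all, though a group outside the comparison at hand is left out for some of them. From other lists at most the 2 genes with the largest change past 2-fold are named, and not all of those were. Alternatives were RLE and total count scaling, no filter, a likelihood ratio test, DESeq2 1.42.0, fits of only the groups compared, the replicate number as a block, a correction for GC content with and without that block, and leaving out each library.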

Additional observations from a re-analysis of the deposited data

Results flagged for a closer look

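For 9 of the 36 members tested, the combination effect differed between C4-2 and the libraries labelled LNCaP by over 2-fold. The difference itself was tested in edgeR, and 25.3% of all genes were past 2-fold in it (11.4% above 0 and 13.9% below). The count of 9 members was thus close to the share of all genes. The log2 difference was 2.83 for DNAJB1 (adjusted p = 2.53e-13), 2.53 for HSPB8 (adjusted p = 8.24e-06), 2.50 for CRYAB (adjusted p = 0.000617), 1.88 for HSPA1B (adjusted p = 2.56e-09), 1.88 for BAG3 (adjusted p = 4.3e-10), 1.77 for DNAJB2 (adjusted p = 3.28e-09), 1.70 for CHORDC1 (adjusted p = 4.77e-10), 1.60 for HSPB1 (adjusted p = 7.06e-09) and 1.39 for DNAJB4 (adjusted p = 4.69e-08). All 9 were larger in C4-2. Without combination replicate 1 labelled LNCaP, the difference of HSPE1 went from -0.98 to -1.18. For DNAJB1, BAG3 and DNAJB2 both combination libraries labelled LNCaP were below both of their R1881 libraries, while both C4-2 combination libraries were above theirs. HSPB8 rose under both labels. Its C4-2 libraries with R1881 held only 4 and 9 counts, and those of CRYAB 7 and 7. No group had the 4 or more libraries that a search for single outlying values needs.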

How the results depend on the processing

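There were 1950 alternative values of the named members, apart from those leaving out a library. Of these, 1840 kept their side of the threshold, 82 became significant, 22 were lost and 6 changed sign. A change of sign was counted only where the main or the alternative value was called, so the 1840 can hold others. The 6 arose with the GC correction, which moved the interaction of HSF1 from -0.08 to 0.54 (adjusted p = 0.000319, and 0.54 with 0.000354 with the replicate block as well), the LNCaP-labelled combination value of HSPB1 from -0.28 to 0.26 (0.0187, and 0.26 with 0.0322) and that of HSF1 from -0.35 to 0.20 (0.0406, and 0.20 with 0.0584). The cause was not tested. RLE scaling gave a mean summed level of 9531 CPM in C4-2 with R1881 and 15536 with namoline. Total count scaling gave 10107 and 14732, 12852 with the combination and 7703 in the R1881 libraries labelled LNCaP. That scaling also moved the median of all genes from 0.00 to -0.16 with namoline, from -0.03 to -0.17 with the C4-2 combination, from 0.00 to -0.12 in the LNCaP label and from -0.01 to 0.11 in the interaction, and the medians of the members in the comparisons against R1881 to 0.51, 0.42 and 0.26.

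Leaving out 1 library at a time gave 15 to 27 changed members for TCE-5002 (15 without R1881 replicate 1, 23 with all), 13 to 25 for the combination against TCE-5002 (13 without combination replicate 2, 21 with all) and 2 to 4 past 2-fold for the combination against namoline (2 without combination replicate 1 or namoline replicate 2, 4 with all). In the last, 3 were higher and 1 lower, but 3 and 0 with RLE scaling. A library left alone in its group was assumed to vary like the others.

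Replicate numbers were not taken to pair libraries, since that needed a correlation of deviations over 0.1 in every pair of groups. In C4-2, 5 of 6 pairs reached it (0.14 to 0.443), namoline with the combination did not (-0.0239), and the LNCaP label gave 0.0634. Within a label, same-numbered libraries thus correlated best in all pairs but 1. Pairs of groups across the labels were all negative, from -0.557 to -0.0644. With the replicate block 24 members changed with namoline in place of 21, 24 with TCE-5002 in place of 23, 28 with the combination in place of 25 and 28 in the LNCaP label in place of 29. Over 225 values of named members the block lost 2 calls, HSPA4L between the labels with R1881 and BAG2 in the difference between the lines. It gained 9, namely HSPD1 and DNAJB4 with namoline, BAG2 and AHSA1 with the combination, BAG2 against namoline, HSPD1, HSP90AB1 and HSPB1 against TCE-5002, and the interaction of HSPA4L.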

Other observations

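Lists not yet described are counted here beside the shares of all genes, which were 18.7% higher and 16.3% lower with namoline, 19.9% and 16.7% with TCE-5002, 24.8% and 25.6% in the C4-2 combination and 28.0% and 28.2% in the libraries labelled LNCaP. Of 6 genes of prefoldin, which hands actin and tubulin to the TRiC chaperonin, 1 was higher and 1 lower with namoline, TCE-5002 raised 3, the C4-2 combination raised 3, and the combination under the LNCaP label raised 5. PFDN2 rose by 1.16 ± 0.14 on the log2 scale with the C4-2 combination, and PFDN6 rose by 1.39 ± 0.12 in the libraries labelled LNCaP. Of 10 mitochondrial proteases and HSP70 partners, 4 were higher and 3 lower with namoline, 4 and 2 with TCE-5002, 4 and 0 in the C4-2 combination, and 3 and 4 in the libraries labelled LNCaP. GRPEL2, a nucleotide exchange factor of HSPA9, had mean levels of 128 CPM with R1881, 67.7 with namoline, 93.5 with TCE-5002 and 162 with the combination in C4-2, the order of groups seen for HSPA9. Its interaction was 1.73 ± 0.18 (edgeR, adjusted p = 2.22e-06).

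Of 11 other HSP70 and small heat shock protein genes, 5 were tested in C4-2. HSPA13, an HSP70 of the endoplasmic reticulum, fell by 1.91 ± 0.13 with namoline and 1.47 ± 0.13 with TCE-5002, and was at a mean of 242 CPM with the combination against 229.7 with R1881. Of the 10 other HSP90 co-chaperones, 3 were higher and 1 lower with namoline, 2 and 0 with TCE-5002, 5 and 2 in the C4-2 combination and 6 and 1 in the libraries labelled LNCaP. Of the 9 luminal markers, 3 were higher and 1 lower with namoline, 5 and 1 with TCE-5002, and in the C4-2 combination 1 and 6. Among 10 heat-inducible genes that are not chaperones, TXNRD1, which encodes a thioredoxin reductase, rose with namoline by 1.04 ± 0.13 and in the libraries labelled LNCaP by 1.11 ± 0.10.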
